A study of Mus musculus with 20 samples.

Results

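The genes described here are 10 that are widely used to recognise macrophages, monocytes and neutrophils: Csf1r, Adgre1, Cx3cr1, Itgam, Itgax, Lyz2, Cd68, Cd14, S100a8 and S100a9. They were chosen by name, and all 10 were found among the 24795 genes of the deposited table. The series holds RNA-seq of the mouse intestine in 20 libraries: 6 are DM-aKG-treated Apc Min, 7 are Apc Min under a control treatment, and 7 are WT, called untreated by the labels. Apc Min mice carry a truncating mutation in Apc, a brake on Wnt signaling, and form many adenomas in the gut. The compound DM-aKG, dimethyl alpha-ketoglutarate, is an ester that enters cells and releases alpha-ketoglutarate, an intermediate of the TCA cycle. WT libraries, called untreated, differ from both Apc Min groups in genotype and in treatment, so both comparisons with WT join the 2 factors. The labels of all 3 groups also name organoid medium and low-glutamine medium, intestinal organoids and primary cells, although the titles name tissue. Dose, duration, age and the number of animals behind the libraries are not given in the labels.

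Macrophages of the intestine lie under the epithelium, take up bacteria and dead cells, and are renewed in large part by blood monocytes, whose growth and survival depend on the receptor Csf1r. Neutrophils are short-lived granulocytes that enter the gut wall when chemokines call them. Their cytosol is packed with calprotectin, a complex of S100a8 and S100a9 that binds calcium and zinc and is measured in stool as a sign of intestinal inflammation. Several genes of the group are not restricted to 1 cell type: Itgam is made by monocytes and neutrophils as well as macrophages, Itgax also by dendritic cells, and S100a8, S100a9 and Cd14 also by stimulated epithelium.

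S100a8 and S100a9 are shown by the 250 bases before their start, because these neighbours on chromosome 3 moved together in the libraries. S100a8 lies at chr3:90668978-90670035 on the plus strand and S100a9 at chr3:90692632-90695721 on the minus strand (GENCODE M21, mm10), with their starts 26743 bases apart. The sequences are from RefSeq (GRCm38.p6), read 5′ to 3′ on the strand of each gene, and end at the base before the RefSeq start; the GENCODE start of S100a8 lies inside its window. Capitals mark matches, on either strand, to GAGGAA (the core letters bound by PU.1, a factor of the myeloid lineage), to TTGCNNAA (C/EBP, a factor of granulocytes) and to TATAAA (the TATA box).
S100a8, chr3:90668821-90669070: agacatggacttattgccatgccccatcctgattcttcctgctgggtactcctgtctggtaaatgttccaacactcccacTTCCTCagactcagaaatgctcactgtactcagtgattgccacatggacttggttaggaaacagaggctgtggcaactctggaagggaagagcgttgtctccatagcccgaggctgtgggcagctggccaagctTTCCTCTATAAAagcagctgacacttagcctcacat
S100a9, chr3:90695722-90695971: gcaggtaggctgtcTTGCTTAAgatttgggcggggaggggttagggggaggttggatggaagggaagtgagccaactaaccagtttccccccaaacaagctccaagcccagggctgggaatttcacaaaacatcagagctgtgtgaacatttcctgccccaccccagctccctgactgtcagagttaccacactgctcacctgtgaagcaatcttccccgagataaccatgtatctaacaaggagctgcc
The S100a8 window held GAGGAA on the opposite strand at 170 and 36 bases before the start and TATAAA at 30 bases, next to but not overlapping the second GAGGAA. In the S100a9 window, TTGCNNAA stood at 236 bases before the start. That window held neither GAGGAA nor TATAAA, and the S100a8 window held no TTGCNNAA, so the windows shared none of these motifs. These short motifs are common: of 32851 mouse promoter windows of the same length, 23.3% held GAGGAA, 12.4% held TATAAA and 9.56% held TTGCNNAA.

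Lyz2, the lysozyme of macrophages, is shown beside Lyz1, the lysozyme of Paneth cells, because reads from an abundant Lyz1 could be counted for Lyz2. The 2 genes are neighbours on chromosome 10, 5476 bases apart, with Lyz2 at chr10:117277331-117282321 and Lyz1 at chr10:117287797-117292868 on the minus strand (GENCODE M21, mm10). The first 300 bases of their coding sequences are from the GENCODE M21 transcripts, and capitals mark the bases that differ.
Lyz2: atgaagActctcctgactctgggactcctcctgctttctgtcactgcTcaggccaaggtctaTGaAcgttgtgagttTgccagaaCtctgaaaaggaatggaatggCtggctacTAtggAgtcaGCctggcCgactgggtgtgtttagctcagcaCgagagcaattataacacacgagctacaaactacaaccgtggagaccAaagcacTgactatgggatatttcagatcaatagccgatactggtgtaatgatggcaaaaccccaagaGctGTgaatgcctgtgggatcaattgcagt
Lyz1: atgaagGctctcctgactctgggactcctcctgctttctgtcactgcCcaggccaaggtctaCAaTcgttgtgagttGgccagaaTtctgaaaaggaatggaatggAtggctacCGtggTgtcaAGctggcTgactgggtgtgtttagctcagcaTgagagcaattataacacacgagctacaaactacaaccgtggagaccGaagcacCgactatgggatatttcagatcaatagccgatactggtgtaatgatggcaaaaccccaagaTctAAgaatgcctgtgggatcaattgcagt
Over all 444 coding bases without the stop codon, 22 differed, 20 of them in the stretch shown, an identity of 95.05%, and the longest identical stretch ran over 118 bases. Lyz2 values are therefore uncertain wherever Lyz1 is abundant.

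Values are RPKM, reads scaled by the length of the gene and the size of the library, so levels of different genes can be set side by side. Depth, estimated from the smallest steps between low values, was 26.3 to 27.5 M reads in DM-aKG Apc Min, 21.2 to 28.9 M in control Apc Min and 25.8 to 29.5 M in WT libraries. Material other than epithelium was present in every library: the pan-leukocyte gene Ptprc had 1.16 to 3.90 RPKM in DM-aKG Apc Min, 1.01 to 5.76 RPKM in control Apc Min and 4.46 to 9.93 RPKM in WT libraries. Myh11, a smooth muscle myosin, reached 110.1 to 212.6 RPKM in DM-aKG Apc Min, 36.8 to 139.9 RPKM in control Apc Min and 122.6 to 194.2 RPKM in WT libraries. Epcam, an epithelial adhesion protein, had 506.5 to 722.3, 696.4 to 978.2 and 810.5 to 1090 RPKM in the same order of groups. Replicates 1 to 4 of all groups had 3836 to 6558 RPKM of the ribosomal RNA transcript Rn45s and replicates 5 to 7 had 1078 to 3621 RPKM, a split the labels do not name, and comparisons were therefore also made within each set. In bulk RNA, fewer cells of a type and less RNA of a gene per cell cannot be told apart.

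The 10 genes did not all change in the same direction. In control Apc Min against WT libraries, 6 genes fell (Csf1r, Adgre1, Cx3cr1, Itgam, Itgax and Lyz2), 3 rose (Cd14, S100a8 and S100a9), and Cd68 did not pass the test. A call is a limma adjusted p under 0.05 over the 12433 genes that reached 1 RPKM in 6 or more libraries. Of all genes tested in this comparison, 15.7% were lower and 43.2% higher, 58.8% in all. S100a8 and S100a9 passed the filter only through Apc Min libraries, so their rise is favoured by the filter and is no support beside these shares. With DM-aKG, against the control treatment, Cd68 and Cd14 fell and none of the 10 rose, where 27.6% of all genes were lower and 5.91% higher, 33.5% in all. These shares moved with the scaling. For control Apc Min against WT, quantile normalization gave 26.8% lower and 26.3% higher and median-of-ratios scaling 27.5% lower and 26.3% higher, with 6 members lower and 3 higher under both. The same scalings gave, for DM-aKG against control, 14.8% lower and 13.8% higher, and 14.7% lower and 11% higher, with 2 members lower and 0 higher. The members lower with DM-aKG, 2 of 10, are a share between these backgrounds. DM-aKG Apc Min against WT libraries gave 5 genes lower (Csf1r, Cx3cr1, Itgam, Itgax and Lyz2) and 2 higher (S100a8 and S100a9), where 17.3% of all genes were lower and 21.9% higher, 39.2% in all. After median-of-ratios scaling this was 22.5% lower and 18.2% higher, with 7 members lower and 2 higher. Each group stands in 2 of the 3 comparisons, so these share libraries and are not independent.

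The median difference of the 10 genes, in log2(RPKM + 1), was -0.24 with DM-aKG against control, -0.65 in control Apc Min against WT and -0.58 in DM-aKG Apc Min against WT libraries. Over all genes tested it was -0.14, 0.20 and 0.05 in the same comparisons. Rescaling the libraries to one median or one distribution brought the medians of all genes to between -0.01 and 0.02, and no call among the 10 genes turned its direction. All 10 genes passed the filter on low values. S100a8 and S100a9 reached 1 RPKM in 12 libraries each, all of them Apc Min, and so passed through the groups in which they were high. A fall against WT was therefore not open to them in either comparison with WT. Fitted without the filter, control Apc Min against WT gave limma adjusted p = 4.9e-05 for S100a8 and 4.51e-05 for S100a9.

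**Figure D1:**
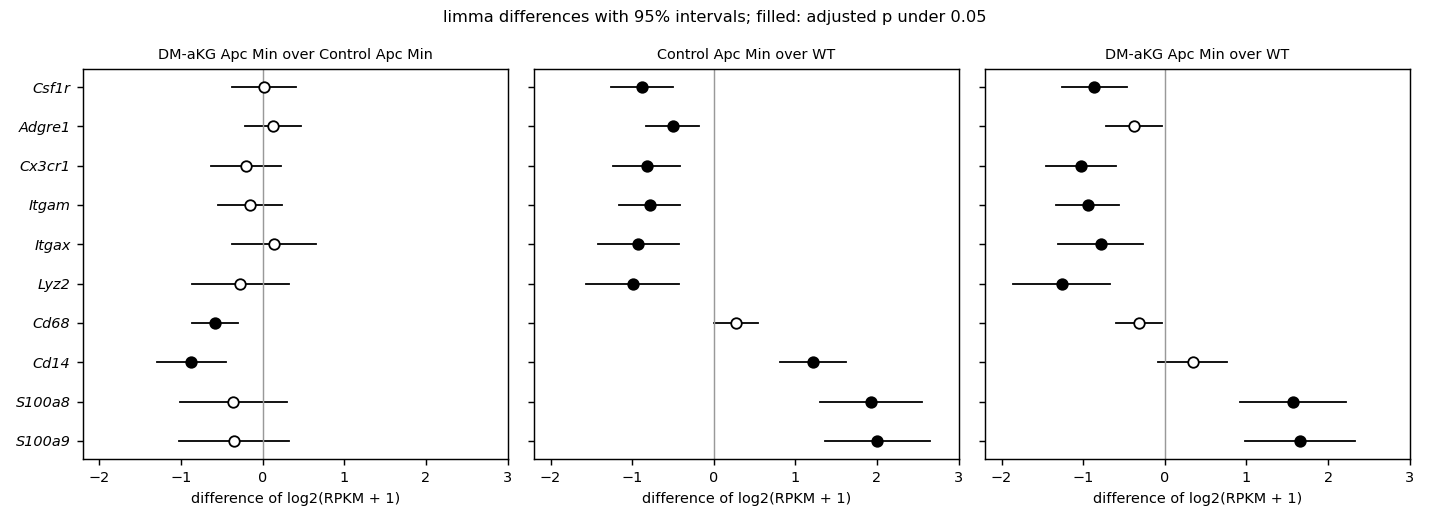
Differences of log2(RPKM + 1) between groups for the 10 genes, with 95% intervals, in the 3 comparisons. Filled points passed the limma test. In control Apc Min over WT, 6 genes lie at -0.99 to -0.50 and Cd14, S100a8 and S100a9 at 1.22 to 2.0.

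Csf1r, the receptor for the growth factors CSF1 and IL-34 that keep macrophages alive, had 3.63, 5.26 and 6.76 RPKM as its lowest, median and highest values in DM-aKG Apc Min libraries, 3.81, 4.54 and 6.24 RPKM in control Apc Min and 4.79, 12.0 and 14.8 RPKM in WT libraries. The Apc Min groups covered nearly the same range, and WT libraries reached far above both while overlapping them at the low end. Csf1r (chr18:61100598-61132149) fell by 0.88 in control Apc Min against WT (SE 0.183, limma adjusted p = 0.000396) and by 0.87 in DM-aKG Apc Min against WT (limma adjusted p = 0.00163). The control Apc Min mean was 0.479 of the WT mean. Between DM-aKG and control the difference was 0.01, with a 95% interval of -0.38 to 0.41 (limma adjusted p = 0.965), and its sign was negative, at -0.01, when ribosomal RNA and haemoglobin were left out of the scaling.

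Adgre1 encodes F4/80, the surface protein by which mouse macrophages are commonly sorted, and lies at chr17:57358691-57483527. It was scarce, with 0.420, 1.20 and 1.62 RPKM in DM-aKG Apc Min, 0.396, 0.875 and 1.22 RPKM in control Apc Min and 0.834, 1.66 and 2.12 RPKM in WT libraries. Control libraries fell by 0.50 against WT (SE 0.158, limma adjusted p = 0.00976), with overlapping ranges. The values with DM-aKG lay between those of the other groups: the difference was 0.12 against control (limma adjusted p = 0.593) and -0.38 against WT (limma adjusted p = 0.0705), neither past the threshold. The last difference passed at -0.48 after quantile normalization (limma adjusted p = 0.0178), at -0.43 after median-of-ratios scaling (limma adjusted p = 0.0366), and without DM-aKG replicate 4 or 6 or WT replicate 1 (limma adjusted p = 0.0381, 0.0496 and 0.0306).

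Cx3cr1, the receptor for the membrane-bound chemokine fractalkine, marks resident intestinal macrophages and patrolling monocytes, and lies at chr9:119901616-120069879. Its levels were 0.261, 0.635 and 1.93 RPKM in DM-aKG Apc Min, 0.50, 1.30 and 1.41 RPKM in control Apc Min and 1.56, 2.89 and 3.88 RPKM in WT libraries. All 7 control Apc Min libraries lay below all 7 WT libraries. Ranges parted in that direction for 5.73% of all genes tested. Control libraries fell by 0.82 against WT (SE 0.199, limma adjusted p = 0.00151) and DM-aKG libraries by 1.03 (SE 0.207, limma adjusted p = 0.000848). Against control the DM-aKG difference was -0.21, within the spread between libraries (limma adjusted p = 0.469).

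Itgam and Itgax encode CD11b and CD11c, the alpha chains that pair with the beta chain Itgb2 to form complement receptors and adhesion molecules of myeloid cells. They are neighbours on chromosome 7, at chr7:128062640-128118491 and chr7:128129547-128150657, with a gap of 11056 bases. Itgam had 0.898, 1.36 and 2.56 RPKM in DM-aKG Apc Min, 0.988, 1.49 and 3.58 RPKM in control Apc Min and 2.13, 4.15 and 5.08 RPKM in WT libraries. WT was higher in most libraries, with some overlap with each Apc Min group. Itgam fell by 0.79 in control Apc Min against WT (SE 0.180, limma adjusted p = 0.000952) and by 0.95 in DM-aKG Apc Min against WT (limma adjusted p = 0.000757). With DM-aKG against control it differed by -0.16 (limma adjusted p = 0.542), a sign that turned under quantile normalization.

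Itgax showed 0.678, 1.61 and 3.90 RPKM in DM-aKG Apc Min, 0.528, 1.86 and 2.52 RPKM in control Apc Min and 2.11, 3.72 and 4.83 RPKM in WT libraries. Of the 7 control libraries, 6 lay below all WT libraries, and 4 of the 6 DM-aKG libraries did so. It fell by 0.92 in control Apc Min against WT (SE 0.240, limma adjusted p = 0.00267) and by 0.79 in DM-aKG Apc Min against WT (limma adjusted p = 0.0177). The last call was lost without DM-aKG replicate 2 (limma adjusted p = 0.0507) or replicate 5 (limma adjusted p = 0.0546). Treated and control libraries differed by 0.14 in Itgax (limma adjusted p = 0.707). Itgb2, the shared beta chain, fell with both, by 0.97 in control Apc Min against WT (limma adjusted p = 2.53e-05), and differed by -0.04 between DM-aKG and control (limma adjusted p = 0.854).

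Lyz2 was the most abundant of the 10 genes, with 7.21, 17.3 and 33.6 RPKM in DM-aKG Apc Min, 10.5, 18.2 and 32.9 RPKM in control Apc Min and 30.8, 40.5 and 49.9 RPKM in WT libraries. A single library of each Apc Min group reached into the WT range. Lyz2 fell by 0.99 in control Apc Min against WT (SE 0.273, limma adjusted p = 0.00408) and by 1.27 in DM-aKG Apc Min against WT (SE 0.284, limma adjusted p = 0.00191). The DM-aKG and control groups differed by -0.27 (limma adjusted p = 0.485). Its paralog Lyz1 was far more abundant and took another course, averaging 2083 ± 784 RPKM in DM-aKG Apc Min (SD, n = 6), 667 ± 712 RPKM in control Apc Min (SD, n = 7) and 1609 ± 1161 RPKM in WT libraries (SD, n = 7). Lyz1 rose by 2.17 with DM-aKG against control (limma adjusted p = 0.00609), a comparison in which Lyz2 did not pass. Within replicates 1 to 4 the Lyz1 difference was 3.40 (limma adjusted p = 0.00011), and within replicates 5 to 7 it was 0.37 and was not called (limma adjusted p = 0.665). How many Lyz2 reads came from Lyz1 was not tested.

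**Figure D2:**
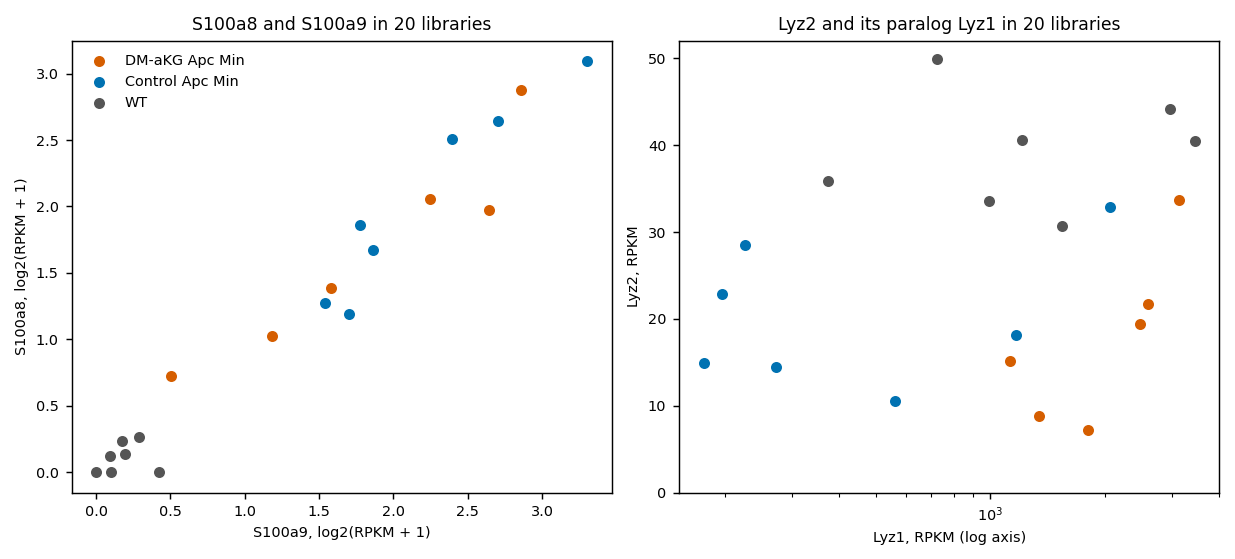
Left, S100a8 against S100a9 in log2(RPKM + 1), 1 point per library. Right, Lyz2 in RPKM against Lyz1 in RPKM on a log axis. Libraries with much S100a9 also had much S100a8, and WT libraries lay above most Apc Min libraries in Lyz2. At the low end of Lyz1, below the lowest WT library at 373.3 RPKM, there are 4 control Apc Min libraries and none of WT.

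Cd68, a glycoprotein of lysosomes and endosomes that is abundant in phagocytes, did not share the fall against WT. It had 2.42, 3.35 and 4.04 RPKM in DM-aKG Apc Min, 4.10, 4.74 and 7.47 RPKM in control Apc Min and 2.88, 4.88 and 4.98 RPKM in WT libraries. Every DM-aKG library lay below every control library, although the gap between the groups was narrow. Ranges parted in that direction for 8.19% of all genes tested, and in the other for 0.732%, where no member stood. Cd68 (chr11:69664213-69666153) fell by 0.59 with DM-aKG (SE 0.136, limma adjusted p = 0.00256), and the DM-aKG mean was 0.596 of the control mean. The control group differed from WT by 0.27 (limma adjusted p = 0.0817), a sign that turned under quantile normalization, and passed at 0.33 without control replicate 1 (limma adjusted p = 0.0382). DM-aKG against WT gave -0.32 (limma adjusted p = 0.0709). This passed at -0.40 after quantile normalization (limma adjusted p = 0.015), at -0.38 after median-of-ratios scaling (limma adjusted p = 0.0225), and without DM-aKG replicate 6 or WT replicate 1 (limma adjusted p = 0.0487 and 0.0244).

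Cd14 encodes the co-receptor that hands bacterial lipopolysaccharide to Tlr4 and Ly96, and lies at chr18:36725067-36726798. Its levels were 1.60, 4.02 and 6.55 RPKM in DM-aKG Apc Min, 5.90, 8.27 and 11.7 RPKM in control Apc Min and 1.98, 2.65 and 4.61 RPKM in WT libraries. All 7 control libraries lay above all WT libraries, as 20.4% of all genes did, and 5 of 6 DM-aKG libraries lay below all control libraries. Cd14 rose by 1.22 in control Apc Min against WT (SE 0.195, limma adjusted p = 2.82e-05), a mean 2.72 times that of WT, and fell by 0.88 with DM-aKG against control (SE 0.203, limma adjusted p = 0.00253). DM-aKG against WT gave 0.34 and did not pass (limma adjusted p = 0.186), but passed at 0.53 when DM-aKG replicate 6 was left out (limma adjusted p = 0.0206).

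For Cd68 and Cd14 the effect of DM-aKG had the same sign in both sets of replicates and was called in 1 of them. Within replicates 1 to 4 the difference was -0.44 for Cd68 (limma adjusted p = 0.0859) and -0.65 for Cd14 (limma adjusted p = 0.0806). Within replicates 5 to 7, with 2 treated and 3 control libraries, both fell, Cd68 by 0.79 (limma adjusted p = 0.0324) and Cd14 by 1.33 (limma adjusted p = 0.00925). The difference between the sets did not pass for either gene (limma adjusted p of the interaction 0.61 for Cd68 and 0.478 for Cd14).

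Relative to Csf1r in the same library, Cd68 and Cd14 were high in control Apc Min. The ratio of Cd68 to Csf1r had a median of 0.672 in DM-aKG Apc Min, 1.06 in control Apc Min and 0.408 in WT libraries. For Cd14 to Csf1r the medians were 0.831, 1.54 and 0.300 in DM-aKG Apc Min, control Apc Min and WT libraries. These ratios are descriptions and were not tested.

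S100a8 and S100a9, the subunits of calprotectin, were nearly absent from WT libraries and present in every Apc Min library. S100a8 had 0.648, 2.28 and 6.35 RPKM in DM-aKG Apc Min, 1.28, 2.63 and 7.54 RPKM in control Apc Min and 0, 0.0892 and 0.199 RPKM in WT libraries. In WT this amounts to about 6 reads over 7 libraries, and 3 of them were at 0, where 3 reads would have given 0.274 to 0.293 RPKM. All libraries of both Apc Min groups lay above all WT libraries, as they did for 20.4% of all genes with the control treatment and 9.36% with DM-aKG. No member lay below WT in all DM-aKG libraries, as 7.79% of all genes did. S100a8 rose by 1.93 in control Apc Min against WT (SE 0.301, limma adjusted p = 2.06e-05) and by 1.57 in DM-aKG Apc Min against WT (SE 0.313, limma adjusted p = 0.000804). On the log2(RPKM + 1) scale the change of a gene this low is understated.

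S100a9 followed the same course, with 0.415, 2.87 and 6.24 RPKM in DM-aKG Apc Min, 1.91, 2.64 and 8.89 RPKM in control Apc Min and 0, 0.130 and 0.338 RPKM in WT libraries. Again no Apc Min library overlapped the WT range, but the gap was small. DM-aKG Apc Min replicate 6 had 0.415 RPKM, an estimated 5.9 reads, and WT replicate 2 had 0.338 RPKM, an estimated 4.8 reads. S100a9 rose by 2.0 in control Apc Min against WT (SE 0.310, limma adjusted p = 1.87e-05) and by 1.65 in DM-aKG Apc Min against WT (SE 0.323, limma adjusted p = 0.000663). Across the 20 libraries, after each group's mean was taken off, log2(RPKM + 1) of S100a8 and S100a9 had a Pearson r of 0.933, given as a description of points that share library and depth. The ratio of S100a8 to S100a9 in RPKM had a median of 0.833 in DM-aKG Apc Min and 0.848 in control Apc Min libraries.

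No difference in calprotectin transcripts between DM-aKG and control passed the test. The difference from control was -0.36 for S100a8, with a 95% interval of -1.01 to 0.29 (limma adjusted p = 0.395), and -0.35 for S100a9, with an interval of -1.02 to 0.32 (limma adjusted p = 0.426). The sets of replicates pointed in opposite directions: S100a9 gave 0.44 within replicates 1 to 4 and fell by 1.73 within replicates 5 to 7 (limma adjusted p = 0.0231). For S100a8 the values were 0.25 and -1.44, neither past the threshold. The interaction between treatment and set did not pass for S100a9 (limma adjusted p = 0.128) or S100a8 (limma adjusted p = 0.365). Against WT the rise with DM-aKG passed over all replicates, but within replicates 5 to 7 it was 0.67 for S100a8 and 0.65 for S100a9 and passed for neither.

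**Figure D3:**
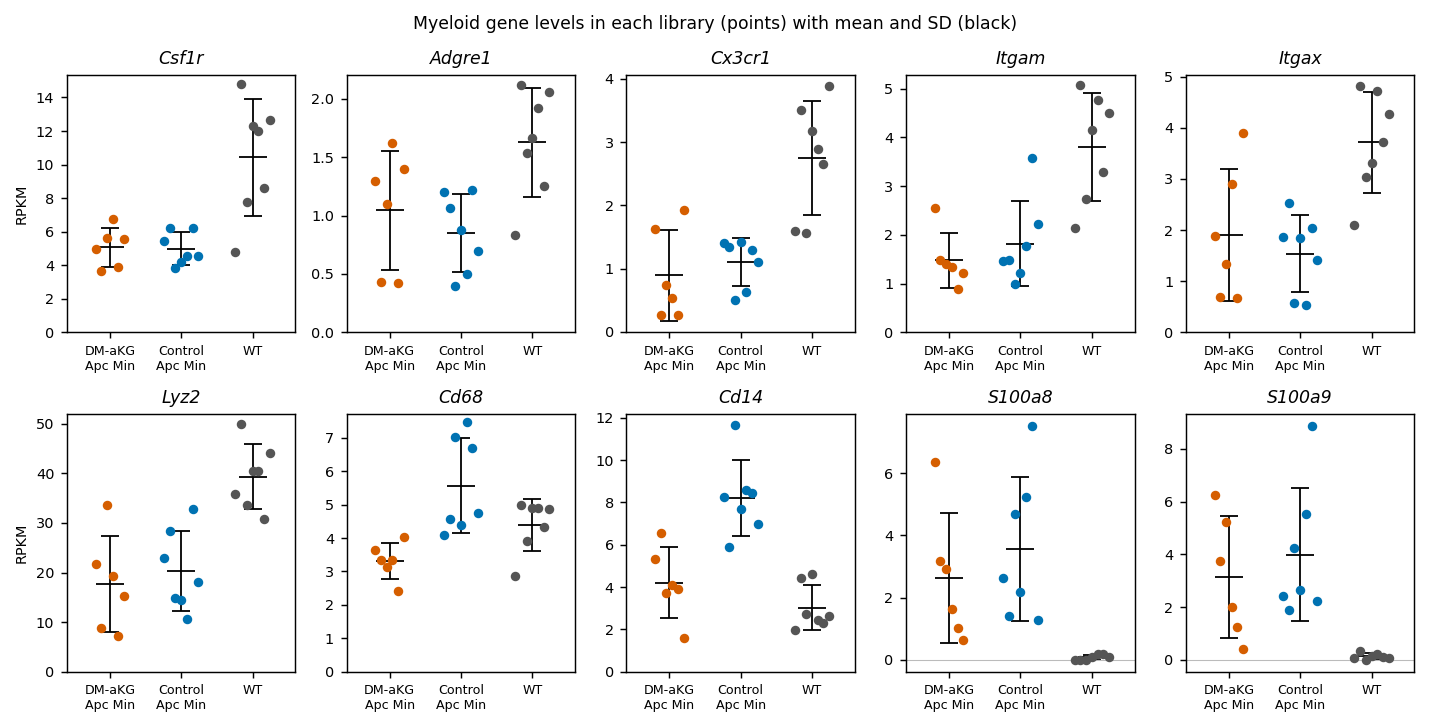
RPKM of the 10 genes in each library, 1 point per library, with the group mean and SD in black, for DM-aKG Apc Min (n = 6), control Apc Min (n = 7) and WT (n = 7). S100a8 and S100a9 lie near 0 in WT libraries, Cd14 is highest in control Apc Min, and Csf1r, Cx3cr1, Itgam, Itgax and Lyz2 are highest in WT.

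Other macrophage genes behaved in a mixed way. Of 26 listed, 18 were measured above the filter. Among all genes tested, 5.91% were higher and 27.6% lower with DM-aKG against control. The shares were 43.2% and 15.7% in control Apc Min against WT, and 21.9% and 17.3% in DM-aKG Apc Min against WT. With DM-aKG against control, 3 rose and 1 fell, with a median of 0.03: Maf rose by 0.64 (limma adjusted p = 0.00158) and Mertk by 0.80 (limma adjusted p = 0.0031), while Mrc1, the mannose receptor, fell by 0.38 (limma adjusted p = 0.0212, and 0.0565 without DM-aKG replicate 5). All 4 kept their signs in both sets of replicates and were called in the set of 5 to 7, against 0 of them in the set of 1 to 4. Maf is a transcription factor and Mertk is a receptor for dead cells, but Maf, at 44.2 to 153.7 RPKM over all libraries, stood far above Csf1r and is also made by other cells of the gut. In control Apc Min against WT, 5 rose and 8 fell. The perforin-like gene Mpeg1 fell by 0.92 (limma adjusted p = 0.000211) and Maf by 1.12 (limma adjusted p = 9.05e-07), and C1qa, a complement component, by 0.40 (limma adjusted p = 0.0438), a call lost in 10 of 20 fits that each left out 1 library. Mrc1 rose by 0.76 (limma adjusted p = 1.97e-05) and the platelet and macrophage chemokine Pf4 by 1.01 (limma adjusted p = 0.000191). DM-aKG Apc Min against WT had 6 higher and 6 lower, with Cd163 higher by 1.01 (limma adjusted p = 0.000112) and Aif1 lower by 0.98 (limma adjusted p = 0.000814). The summed level of the list was 236.4 to 297.5 RPKM in DM-aKG Apc Min, 178.0 to 265.5 RPKM in control Apc Min and 226.8 to 347.4 RPKM in WT libraries. Much of this sum came from Maf, with means of 91.9, 59.3 and 130 RPKM in the same order, and Mertk, with 40.0, 23.4 and 22.3 RPKM. Mertk too stood above Csf1r in every group. Which cells made Maf and Mertk was not tested.

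Monocyte genes, 8 of 14 measured above the filter, gave no call with DM-aKG in either direction, with a median of 0.01. Plac8 averaged 582.4, 682.3 and 728.8 RPKM and Ace 138.5, 87.9 and 171.4 RPKM in DM-aKG Apc Min, control Apc Min and WT libraries. Fn1 averaged 27.1, 33.4 and 19.6 RPKM in the same order. These stood above Csf1r in every group, and the list need not describe monocytes alone. Which cells made them was not tested. In control Apc Min against WT, 4 rose and 2 fell, where 43.2% of all genes were higher and 15.7% lower. Ly6c2, a surface protein of classical monocytes, fell by 1.24 (limma adjusted p = 0.000395), whereas F13a1, a transglutaminase, rose by 1.09 (limma adjusted p = 0.00011) and Nr4a1, a factor of patrolling monocytes that many stimulated cells also make, by 1.46 (limma adjusted p = 0.00372). DM-aKG Apc Min against WT gave 3 higher and 2 lower, with 1 or 2 lower when each library was left out. There, 21.9% of all genes were higher and 17.3% lower. Ccr2, the receptor that brings monocytes out of the marrow, did not pass the filter, averaging 0.409 ± 0.274 RPKM in DM-aKG Apc Min (SD, n = 6), 0.354 ± 0.256 RPKM in control Apc Min (SD, n = 7) and 0.689 ± 0.284 RPKM in WT libraries (SD, n = 7).

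Among neutrophil genes, 6 of 18 passed the filter, mostly through the groups in which they were high. In control Apc Min against WT all 6 rose, a count that the filter favours, where 43.2% of all genes were higher. Of the 12 under the filter, fitted without it, 8 were higher and 0 lower, and Csf3r, Mpo, Elane and Fpr2 were not called (limma adjusted p = 0.787, 0.229, 0.846 and 0.635). The share of 43.2% does not apply to the fit without the filter, whose own share of all genes is not given here. Ltf, the iron-binding lactoferrin, rose by 3.29 (limma adjusted p = 2.71e-10), and Ly6g, the surface protein used to sort mouse neutrophils, by 3.53 (limma adjusted p = 0.000165). Ly6g had 0.0394, 1.44 and 32.5 RPKM in DM-aKG Apc Min, 2.74, 8.52 and 44.6 RPKM in control Apc Min and 0, 0 and 0.0423 RPKM in WT libraries. With DM-aKG against control, where 27.6% of all genes were lower, 3 of the 6 fell: Ltf by 2.92 (limma adjusted p = 8.74e-09), the gelatinase Mmp9 by 1.68 (limma adjusted p = 8.71e-06) and Ly6g by 1.83 (limma adjusted p = 0.047). The Ly6g call was lost in 16 of 20 fits that each left out 1 library (limma adjusted p up to 0.114). In the same comparison Il1b differed by -0.68, Retnlg by -0.15 and Il1r2 by 0.12, none called (limma adjusted p = 0.0539, 0.616 and 0.74). S100a8 and S100a9 did not pass either. Of the 12 under the filter, fitted without it, 3 were lower with DM-aKG and 0 higher. DM-aKG Apc Min against WT gave 2 higher and 1 lower, the last with 0 or 1 when each library was left out. In that comparison 21.9% of all genes were higher and 17.3% lower. Retnlg was higher by 0.97 (limma adjusted p = 0.00173) and Mmp9 lower, at -0.68 (limma adjusted p = 0.0197). Mmp9 had 1.59 to 3.40 RPKM in WT libraries, where Ly6g reached no more than 0.0423 RPKM.

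The defining receptor of neutrophils, Csf3r, was low everywhere and did not follow S100a8 and S100a9. It averaged 0.240 ± 0.0713 RPKM in DM-aKG Apc Min (SD, n = 6), 0.325 ± 0.247 RPKM in control Apc Min (SD, n = 7) and 0.349 ± 0.154 RPKM in WT libraries (SD, n = 7). Mpo and Ngp, granule proteins of immature neutrophils, were at 0 in all WT libraries, and Mpo reached no more than 0.0143 RPKM in DM-aKG Apc Min and 0.0147 RPKM in control Apc Min. Ngp averaged 0.165 ± 0.0794 RPKM in DM-aKG Apc Min (SD, n = 6) and 0.167 ± 0.147 RPKM in control Apc Min (SD, n = 7). Ltf stood far above Csf3r and Ngp in control Apc Min, at 11.7 ± 3.56 RPKM (SD, n = 7). It averaged 0.761 ± 0.841 RPKM in DM-aKG Apc Min (SD, n = 6). The list summed to 3.58 to 49.0 RPKM in DM-aKG Apc Min, 26.7 to 70.5 RPKM in control Apc Min and 3.36 to 6.88 RPKM in WT libraries. Several markers of blood and vessels were higher against WT too. The share of all genes that were higher was 43.2% in control Apc Min against WT and 21.9% in DM-aKG Apc Min against WT. All 5 erythroid markers rose in control Apc Min against WT and in DM-aKG Apc Min against WT, with medians of 1.69 and 2.18, and summed to 60.4 to 403.6 RPKM in DM-aKG Apc Min, 8.17 to 319.8 RPKM in control Apc Min and 15.3 to 51.5 RPKM in WT libraries. The rise in control Apc Min was called for 0 of the 5 in the set of replicates 1 to 4. Against WT, 3 of 5 endothelial markers rose in control Apc Min and 5 of 5 in DM-aKG Apc Min (3 to 5 when each library was left out), and they summed to 26.02 to 39.9, 27.4 to 39.6 and 8.54 to 21.7 RPKM in DM-aKG Apc Min, control Apc Min and WT libraries. No erythroid or endothelial marker was at 0 in a whole group. The part of blood and vessels in the rise of S100a8 and S100a9 was not tested. Nor was it tested which cells made these transcripts or those of Ltf, Mmp9 and Ly6g.

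Signals that call or feed these cells were measured in the same libraries. Of 17 growth factors and chemokines, 10 passed the filter. For comparison, 43.2% of all genes were higher and 15.7% lower in control Apc Min against WT. The shares were 5.91% and 27.6% with DM-aKG against control, and 21.9% and 17.3% in DM-aKG Apc Min against WT. The neutrophil-attracting chemokines rose in control Apc Min against WT, Cxcl1 by 1.84 (limma adjusted p = 0.000238), Cxcl2 by 1.78 (limma adjusted p = 2.6e-05) and Cxcl5 by 1.36 (limma adjusted p = 0.000209), and with 3 lower the list had 3 called each way. DM-aKG against control lowered the same 3 chemokines, Cxcl1 by 1.24 (limma adjusted p = 0.0157), Cxcl2 by 1.17 (limma adjusted p = 0.00458) and Cxcl5 by 1.13 (limma adjusted p = 0.0037), in all with 4 lower and 1 higher. Within replicates 1 to 4 the differences were -0.80, -0.74 and -0.74 for Cxcl1, Cxcl2 and Cxcl5 (limma adjusted p = 0.336, 0.23 and 0.0529). Within replicates 5 to 7 they were -2.02, -1.95 and -1.76, past the threshold for Cxcl1 and Cxcl2 (limma adjusted p = 0.00912 and 0.00284) but not for Cxcl5 (limma adjusted p = 0.0517). Csf1, a ligand of Csf1r, fell by 0.39 with DM-aKG (limma adjusted p = 0.0265, up to 0.0743 and uncalled without DM-aKG replicate 3 or 5 or control replicate 6), whereas Il34, its other ligand, differed by -0.25 (limma adjusted p = 0.0775). Ccl6 rose by 0.92 (limma adjusted p = 0.0166). Cx3cl1, the ligand of Cx3cr1, fell by 0.38 in control Apc Min against WT (limma adjusted p = 0.0198), uncalled without control replicate 5 or WT replicate 1 (limma adjusted p up to 0.0515). DM-aKG Apc Min against WT gave 1 lower, Ccl8 by 0.66 (limma adjusted p = 0.00677), and none higher by limma, with 3 lower without DM-aKG replicate 6 or WT replicate 1, where Csf1 and Il34 were called too.

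Several genes that work with Cd14 changed in the same directions as it did. Of 10 genes listed under lipopolysaccharide and calprotectin sensing, 9 passed the filter. In control Apc Min against WT 5 rose and 1 fell (0 to 2 fell when each library was left out), where 43.2% of all genes were higher and 15.7% lower. The list also holds Cyba and Cybb, which are NADPH oxidase subunits and not sensors. Cybb was the 1 that fell, by 0.37 (limma adjusted p = 0.0244). With DM-aKG against control 5 fell, where 27.6% of all genes were lower, among them Cyba by 0.88 (limma adjusted p = 0.00184). Of those 5 falls, 3 were called in the set of replicates 1 to 4 and all 5 in the set of 5 to 7. Tlr4, the receptor of both ligands, rose by 0.98 in control Apc Min (limma adjusted p = 6.18e-06) and fell by 0.53 with DM-aKG (limma adjusted p = 0.00747). Its partner Ly96 fell by 0.64 with DM-aKG (limma adjusted p = 0.000313) and rose by 0.29 in control Apc Min (limma adjusted p = 0.0318), the rise being lost in 5 of 20 fits that each left out 1 library. In the same comparisons, Tlr2 rose by 0.66 in control Apc Min (limma adjusted p = 5.3e-05) and fell with DM-aKG by 0.84 (limma adjusted p = 1.68e-05). Lbp, which carries lipopolysaccharide to Cd14, rose by 1.36 in control Apc Min (limma adjusted p = 3.07e-06) and fell by 0.74 with DM-aKG (limma adjusted p = 0.00466). In DM-aKG Apc Min against WT, 3 were higher and 2 lower, with 1 to 3 lower when each library was left out. There, 21.9% of all genes were higher and 17.3% lower. Icam1, a ligand of the CD11b integrin, rose by 0.71 in control Apc Min (limma adjusted p = 3.61e-05) and fell by 0.43 with DM-aKG (limma adjusted p = 0.00969). Of the 5 integrin partners and ligands measured, it was the one gene called with DM-aKG, while control Apc Min against WT had 1 higher and 2 lower.

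Pan-leukocyte, T cell and B and plasma cell markers were lower in Apc Min than in WT libraries too, beside the fall of the 6 macrophage-associated genes. The share of all genes that were lower was 15.7% in control Apc Min against WT and 17.3% in DM-aKG Apc Min against WT. All 5 pan-leukocyte markers fell in control Apc Min against WT, Ptprc by 1.37 (limma adjusted p = 7.47e-05), and none was called with DM-aKG against control by limma. The list summed to 15.4 to 38.6 RPKM in DM-aKG Apc Min, 16.1 to 55.9 RPKM in control Apc Min and 46.0 to 78.8 RPKM in WT libraries, with no marker at 0 in a whole group. Relative to Ptprc in the same library, each of the 6 macrophage-associated genes had a higher median in control Apc Min than in WT, with overlapping ranges. For Csf1r the medians were 1.84 in DM-aKG Apc Min, 2.65 in control Apc Min and 1.47 in WT libraries. For Cx3cr1 they were 0.206, 0.537 and 0.411 in the same order. Ratios to Ptprc were not tested. All 6 T cell markers measured fell, with a median of -1.58, Cd3e by 2.12 (limma adjusted p = 4.39e-08), and summed to 2.73 to 9.81 RPKM in control Apc Min and 18.8 to 38.0 RPKM in WT libraries. Plasma cell Jchain fell by 2.81 (limma adjusted p = 2.23e-07), one of 4 falls among 4 B and plasma cell genes. The part of these cells in the fall of Csf1r, Cx3cr1, Itgam, Itgax and Lyz2 was not tested.

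Dendritic cells express Itgax, and mast cells are granulocytes of the gut wall. Beside the counts below, 43.2% of all genes were higher and 15.7% lower in control Apc Min against WT. With DM-aKG against control 5.91% were higher and 27.6% lower. Among 4 dendritic cell genes measured, of 11, Irf8 fell by 1.61 (limma adjusted p = 3.98e-08) and Itgae by 1.43 (limma adjusted p = 5.94e-08) in control Apc Min against WT, and Sirpa rose by 0.70 (limma adjusted p = 1.38e-05). With DM-aKG against control Sirpa fell by 0.59 (limma adjusted p = 0.000356), the 1 call of the list. Which cells made Irf8 and Itgae was not tested. Flt3 stayed below the filter, at 0.124 to 0.305, 0.0979 to 0.629 and 0.335 to 0.708 RPKM in DM-aKG Apc Min, control Apc Min and WT libraries. Of the 7 under the filter, fitted without it, 4 were lower and 0 higher in control Apc Min against WT. They were Flt3, Xcr1, Clec9a and Cd209a. With DM-aKG against control that fit had 0 lower and 1 higher. Of 13 eosinophil and mast cell genes, 3 passed: the mast cell proteases Mcpt1 and Mcpt2 rose in control Apc Min against WT, Mcpt2 by 2.25 (limma adjusted p = 4.77e-05), and fell with DM-aKG, Mcpt2 by 1.91 (limma adjusted p = 0.000937). Siglecf, an eosinophil lectin, passed in no comparison (lowest limma adjusted p = 0.344). Of the 10 under the filter, fitted without it, 7 were higher and 0 lower in control Apc Min against WT. With DM-aKG against control, 1 was higher and 6 were lower. For the fit without the filter, the share of all genes is not given here. Cells of the gut wall differed as well. Among 6 fibroblast markers, 5 rose in control Apc Min against WT and 4 fell with DM-aKG against control, and their sum was 104.6 to 196.0 RPKM in DM-aKG Apc Min, 218.3 to 323.0 RPKM in control Apc Min and 73.8 to 145.2 RPKM in WT libraries. Col1a1 rose by 2.10 in control Apc Min against WT (limma adjusted p = 4.1e-07) and fell by 2.41 with DM-aKG (limma adjusted p = 3.91e-07). All 7 smooth muscle markers fell in control Apc Min against WT and rose with DM-aKG, Myh11 by 1.06 (limma adjusted p = 0.000405) and by 1.13 (limma adjusted p = 0.000867), and they summed to 728.6 to 1343, 333.5 to 1192 and 848.8 to 1480 RPKM in DM-aKG Apc Min, control Apc Min and WT libraries. The rise of the 7 with DM-aKG was called for all of them in the set of replicates 1 to 4 and for 0 in the set of 5 to 7. The Actg2 call with DM-aKG (limma adjusted p = 0.0353) was lost in 8 of 20 fits that each left out 1 library, as was its call in control Apc Min against WT, and Cnn1 with DM-aKG was lost without DM-aKG replicate 5 (limma adjusted p = 0.0613). The part of these cells in the changes of Cd14 and Cd68 was not tested.

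**Figure D4:**
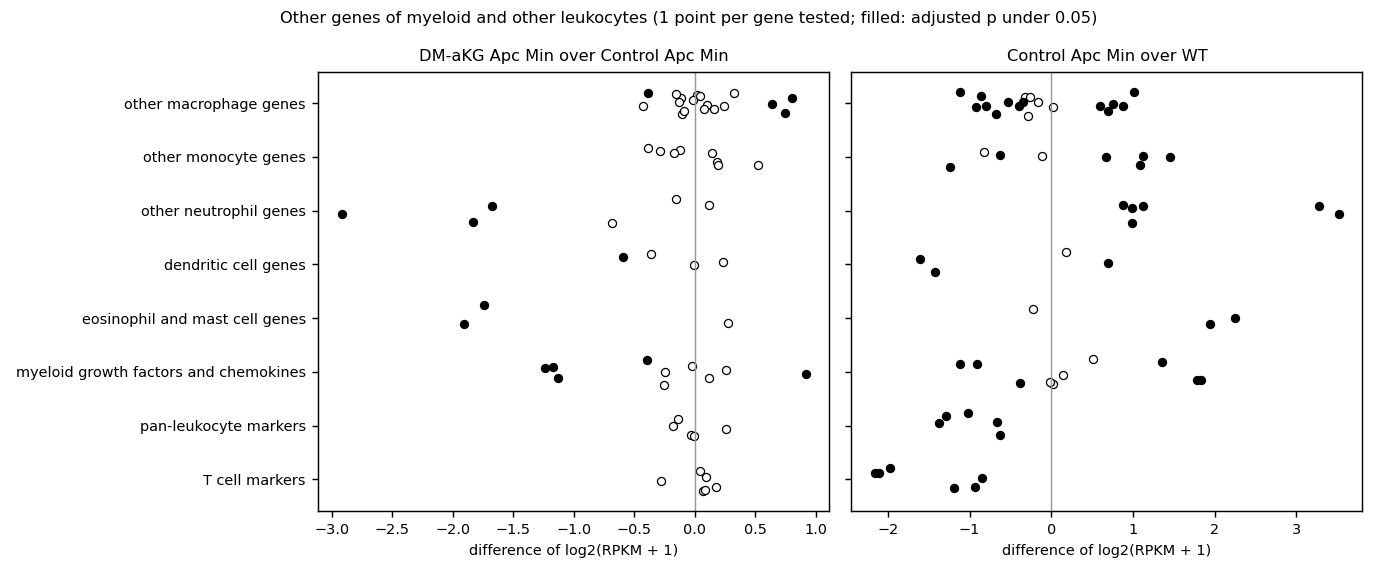
Differences of log2(RPKM + 1) for the other genes of myeloid cells, their signals and other leukocytes, 1 point per gene above the filter, filled where the limma test passed. Left, DM-aKG over control Apc Min, where 3 neutrophil and 2 mast cell genes and 3 neutrophil-attracting chemokines lie below -1. Right, control Apc Min over WT, where all pan-leukocyte and T cell markers lie below 0.

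Within groups, the 10 genes did not vary as 1 block. As Pearson r of log2(RPKM + 1) over the 20 libraries with group means taken off, a description with no test, Adgre1 ran with Itgax (0.893) and Csf1r (0.840), and Cx3cr1 with Itgax (0.794). Cd14 ran with S100a9 (0.601) and against Itgax (-0.445), and Cd68 had an r of 0.451 with Csf1r. Among all 12433 genes, the 3 most like each member by this measure were Gimap9, Mpeg1 and Cep19 for Csf1r (0.914, 0.907 and 0.903), Dnase1l3, Ms4a7 and Itgb2 for Adgre1 (0.921, 0.906 and 0.905), and Lair1, P2rx1 and Tifab for Cx3cr1 (0.888, 0.887 and 0.872). For Itgax they were Dnase1l3, Tlr12 and Mthfsd (0.957, 0.946 and 0.931) and for Itgam Fam174b, Spdef and Pla2g4a (0.917, 0.884 and 0.874). Lyz2 was followed by Idh2, Adcy7 and Ogn (0.902, 0.860 and 0.860), Cd68 by Gfi1, Plcb1 and Csf1 (0.884, 0.835 and 0.831), and Cd14 by Mgat4b, Rras2 and Ppp2ca (0.898, 0.876 and 0.875). S100a8 and S100a9 were each other's nearest gene, followed for both by Retnlg, at 0.870 and 0.874, and then by Wfdc17 for S100a8 (0.781) and Chil3 for S100a9 (0.784).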

How the data were processed

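RNA was measured in 20 libraries, grouped by the sample labels. The authors deposited 1 table of 24795 genes, read here as RPKM from its values. The tools were CASAVA 1.8, HISAT2 2.0.4 and Partek, and the build mm10, per the submitters' processing notes. Which tool did which step, the gene annotation and the strand setting are not stated in the sources used here. Counts could not be recovered: 67.7 to 73.3% of the values of 761 to 918 low genes per library lay within 0.1 of a whole read. The 12433 genes that reached 1 RPKM in 6 or more libraries were fitted as log2(RPKM + 1) for all 3 groups with limma 3.58.1 in R 4.3.3 (trend, robust, statmod 1.5.0), with Benjamini-Hochberg adjustment and calls under 0.05. Fold differences of low genes are understated on this scale. The fit was tested on simulated data. The labels do not tie libraries to animals: the p-values describe how libraries vary, which may be technical. Members, gene lists and replicate sets were chosen with earlier results of these data known. Cybb, Mpo and Ngp were among genes named after their values were seen. By rule, all members are named, with up to 4 genes per list and comparison with the smallest p, listed cell type markers and the 3 genes most like each member. A gene that this rule names is not reported here. Alternatives varied scaling, pseudocount, filter, weights, the libraries in the fit, replicate sets and the replicate block, and left out each library in turn. Python 3.11.15, numpy 2.4.6, pandas 2.3.3 and matplotlib 3.10.9 were used for descriptions and plots.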

Additional observations from a re-analysis of the deposited data

Results flagged for a closer look

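Itgam, the CD11b integrin chain, had 2.56 RPKM in DM-aKG Apc Min replicate 1, against 0.898 to 1.48 RPKM in the other 5 libraries of that group. Its gap to the nearest library was 0.651 of the group's whole range, above the 0.625 that Dixon's test allows for 6 libraries. In all, 30 groups of values were examined and 1 held such a library, where chance gives about 1 in 20, or 1.5. Without it, Itgam fell by 1.06 in DM-aKG Apc Min against WT (limma adjusted p = 0.00041).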

How the results depend on the processing

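Over 13 alternatives and 20 fits that each left out 1 library, the 30 differences of the 10 genes were recomputed 969 times. Of these values, 918 kept their direction and their side of the threshold, 17 lost a call, 16 gained one and 18 turned their sign. None of the 18 called differences turned its sign in these fits, and Itgax in DM-aKG Apc Min against WT was the one that lost its call without a single library. With DM-aKG against control, 2 genes were lower, against 1 with a filter of 5 RPKM, 0 in replicates 1 to 4 alone and 4 in replicates 5 to 7 alone (Cd68, Cd14, Itgam at -0.74 and S100a9). In control Apc Min against WT, 3 genes were higher, against 1 with the filter of 5 RPKM, and 6 were lower, against 2 with that filter and 3 in either set of replicates. For DM-aKG Apc Min against WT, 2 were higher, against 0 with that filter and 0 in replicates 5 to 7, and 5 were lower, against 2 with the filter, 3 in replicates 1 to 4 and 2 in replicates 5 to 7. The filter of 5 RPKM removes members from the test and the sets hold fewer libraries.

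The signs that turned belong to differences that were not called. Between DM-aKG and control, Csf1r gave -0.00601 with ribosomal RNA and haemoglobin left out of the scaling, -0.0909 in replicates 5 to 7 and -0.0621 to 0.0867 when each library was left out. Itgam gave 0.0109 after quantile normalization and 0.22 in replicates 1 to 4, and Itgax -0.00393 in replicates 1 to 4 and -0.0380 to 0.27 when each library was left out. S100a8 gave 0.16 and S100a9 0.13 with array weights, and 0.25 and 0.44 in replicates 1 to 4. Cd68 in control Apc Min against WT gave -0.00384 after quantile normalization. The cause of these turns was not tested. Cd14 in DM-aKG Apc Min against WT was called at 0.44 with array weights (limma adjusted p = 0.025).

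The labels do not say whether replicate numbers pair the libraries, and correlations between libraries cannot exclude it. Same-numbered libraries of 2 groups had correlations of deviations from -0.46 to 0.60, 8 of 19 above 0.1, and in 2 of 19 pairs the same number gave the best match. With the replicate block, 2 of the 10 genes were lower with DM-aKG and the block changed 0 calls among them. At the estimated depth, genes of a few reads, such as S100a8 and S100a9 in WT libraries, have large counting error.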
